A study of Drosophila melanogaster with 3 samples.

Results

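The MCM2-7 complex is the core of the helicase that unwinds DNA during replication. It is loaded as an inactive ring around DNA by the origin recognition complex with Cdc6 and Cdt1, before S phase, and only some of the loaded complexes are activated when replication starts. Sites of MCM in chromatin therefore mark potential replication origins rather than origins that fire in every cell. Kc167 is a line derived from late-stage Drosophila melanogaster embryos, labelled female with the genotype se/e, and was grown here as asynchronous cultures, which mix cells of all cycle stages.

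The regions described here lay in the stretches of chromosome arm where MCM regions were most crowded. The list deposited for the whole series held 7029 MCM regions, of which 6883 lay on the 5 large arms, which are X, 2L, 2R, 3L and 3R. Each arm was cut into windows of 100 kb from position 1, a region was assigned by its start, and all regions in windows with 18 or more were taken. This gave 467 regions in 22 windows, called dense windows below, or 6.78% of the regions on the arms. The other 6416 regions lay in 1040 windows with 1 to 17 regions, and 130 windows of a total of 1192 held none. The number of regions per window chose these windows, so that number and the spacing that follows from it are a description and carry no test.

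The 3 samples were 2 immunoprecipitations of MCM, each from a chromatin extraction with its own number and called replicates 1 and 2, and 1 input, not analysed here. All came from the same line and culture type, and no label ties the extractions to separate cultures, so a spread between replicates may be technical. The antibody was an unpurified mouse monoclonal raised against the yeast complex. Replicate 1 held 10276 peaks on the arms and replicate 2 held 8109, on FlyBase release 5.1. Whole-series regions have a peak in both replicates, so the rule already selected shared signal. The deposited files give no read counts, so the depth is unknown. With 1 group of 2 immunoprecipitations, no comparison between samples could be tested, and values are set against the spread between the 2 replicate lists. Regions within a list are not replicates.

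Dense windows occurred on all 5 arms, and most stood alone. X had 7 of them among 225 windows (3.11%), 2R had 5 of 212 (2.36%), 2L had 5 of 230 (2.17%), 3L had 3 of 246 (1.22%) and 3R had 2 of 279 (0.717%). Members made up 9.52% of the regions of X and 9.28% of those of 2L, but 3.82% of those of 3R. The 2 dense windows of 3R were nevertheless the most crowded of all. The mean over all windows was 5.77 regions, and the median of windows with any region was 6.

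The 10 most crowded windows held 21 to 32 regions. On 3R, the window from 12000001 to 12100000 held 32 regions that covered 15.3 kb, and the one from 17400001 to 17500000 held 29 that covered 8.93 kb. On 2L, 28 regions lay between 1100001 and 1200000 and covered 12.2 kb. On 3L, the window from 600001 to 700000 held 23 regions and covered 13.3 kb, more than the windows with 29 and 28 regions. Then came 4 windows with 22 regions each. They ran on 2R from 2500001 to 2600000, on 3L from 11200001 to 11300000, and on X from 2000001 to 2100000 and from 19500001 to 19600000, and they covered 4.15 to 6.33 kb. The last of the 10 held 21 regions each, on 2L from 5000001 to 5100000 (6.26 kb) and on X from 3600001 to 3700000 (7.13 kb). Covered length thus followed the count only loosely. The window with 32 regions covered the most of all dense windows. However, 22 regions on X from 2000001 covered 4.15 kb, the least, and 19 regions on 2L from 19100001 to 19200000 covered 11.4 kb.

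**Figure D1:**
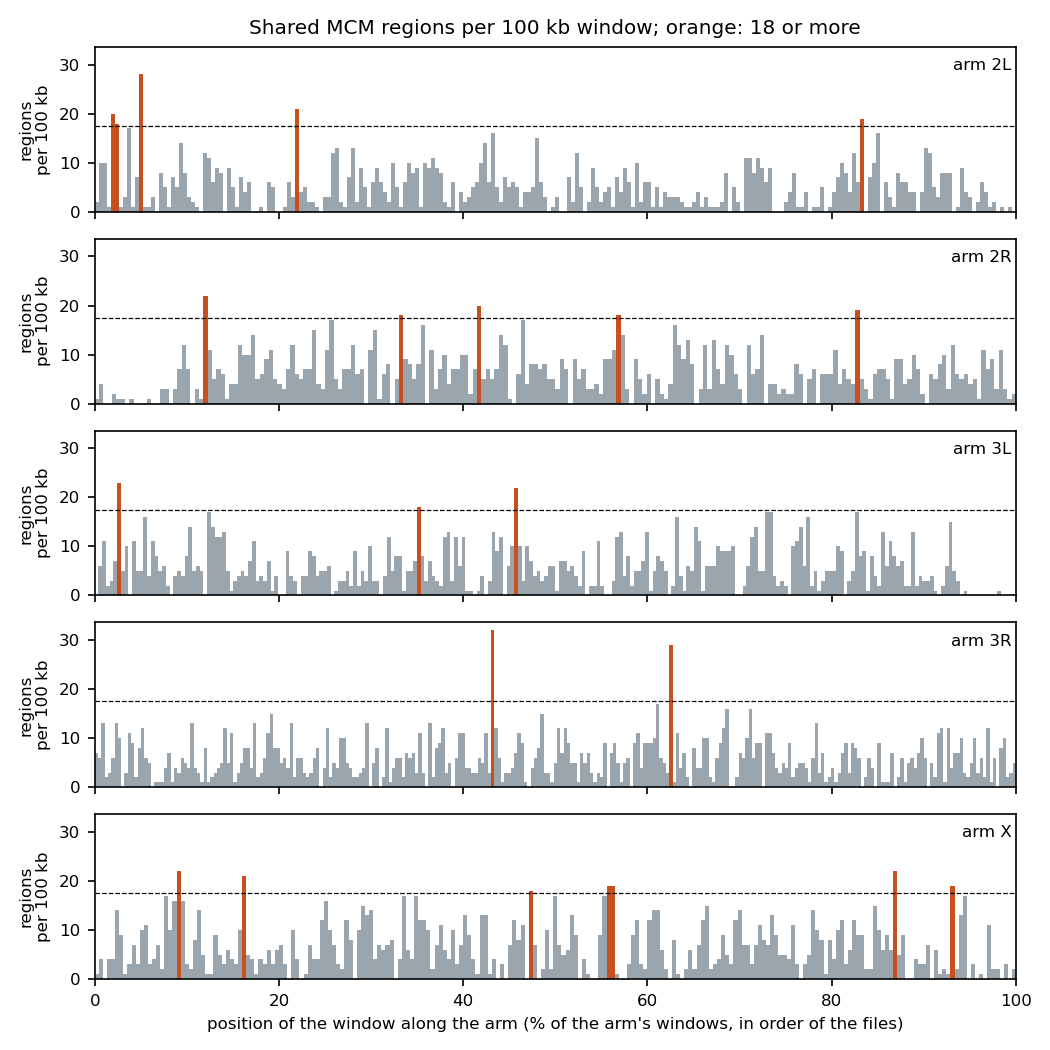
Number of shared MCM regions per 100 kb window (vertical axis) along each of the 5 arms (horizontal axis, % of the arm's windows). Orange bars are the 22 dense windows with 18 or more regions, and the dashed line marks the threshold. The tallest bars are the 2 windows of 3R with 32 and 29 regions, and 18 of the 22 orange bars stand without an orange neighbour.

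Of the 22 dense windows, 4 adjoined another, where dense windows were 1.85% of all windows on the arms. They formed 2 runs of 200 kb, each with 38 regions, on 2L from 400001 to 600000 and on X from 12500001 to 12700000. The other 18 had no dense neighbour. With the grid shifted by 50 kb, 22 windows again held 18 or more regions, and they overlapped 13 of these 22, so the place of a dense window depends in part on where the grid starts. Successive dense windows of an arm were a median of 3.2 Mb apart, with a range of 0.1 to 14.1 Mb over 17 distances. Leaving out neighbours that were dense themselves, the surroundings were not crowded as a rule. The 40 remaining windows next to a dense one held a median of 5 regions, the same as the 1130 windows farther away (median 5). Among these 40, 12.5% held 12 or more regions and 52.5% held 5 or fewer, against 10.8% and 56.3% farther away. With dense neighbours included, the median was 6.5 regions in the window before a dense one and 5 in the window after it. Extremes occurred side by side. The window on X from 2000001 lay between windows with 16 regions each, whereas 29 regions on 3R from 17400001 lay between windows with 3 and 1.

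Along the arms, dense windows lay from near the telomere to near the centromere. From the known orientation of the arms, 4 lay within 2 Mb of a telomere end, all on 2L or 3L, and 1 lay within 2 Mb of a centromere end. The share of all windows in these end blocks is not given here, so the counts only describe position. The closest to a telomere end was on 2L from 400001 to 500000, its middle 0.377 Mb from the first peak of the arm. The closest to a centromere end was on X from 20900001 to 21000000, 1.47 Mb from the last peak of the arm.

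At the threshold, 5 windows held 18 regions and 14 held 17. Regions just inside had a median width of 302.5 bp (90 regions), a median score of 2.55 and covered 6.68 kb per window. Those just outside had a median width of 219.5 bp (238 regions), a median score of 2.49 and covered 4.55 kb per window.

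Within dense windows, 272 of the 467 members (58.2%) had another region within 1 kb, against 37.2% of the regions in other windows. The median gap between neighbours was 1605 bp (quartiles 533 and 4478 bp), against 4250 bp (994 and 12534 bp) in the other windows. Gaps were counted where both regions started in the same window, so long gaps that cross a window's edge are missing from both sets. Median gaps in the lists of replicates 1 and 2 were 1122.5 and 1489 bp in dense windows, against 2814 and 3464 bp in the other windows. Very short gaps were also more frequent: 39.3% of gaps in dense windows were at most 1 kb, against 25.2% in other windows and 30.7% in windows with 12 to 17 regions. The shortest gap in a dense window was 37 bp, on 2R from 12000001 to 12100000.

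Open stretches remained in each window. The longest gap between neighbouring regions of a window ran from 7.26 to 33.5 kb with a median of 17.1 kb. Empty ends of a window were not counted as gaps and could be longer. Regions occupied 5 to 9 of the 10 kb bins of a window. On 3L from 8600001 to 8700000, all 18 regions lay within 45.1 kb at the high-coordinate end of the window, as the plot of positions inside the windows shows. In contrast, 22 regions on 2R from 2500001 spread over 98.4 kb. The longest gap of 33.5 kb was on X from 20900001.

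When regions within 1 kb of each other were joined, the dense windows held 292 groups, of which 195 were single regions and 38 (13.0%) held 3 or more. In the other windows 4.95% of 5049 groups held 3 or more. The largest group joined 9 regions over 8.78 kb on 3L from 626813 to 635589. Groups of 8 lay on 3R from 12031175 to 12038126 (6.95 kb) and on X from 3669922 to 3675264 (5.34 kb), and a group of 7 on 2L from 19156734 to 19166320 extended over 9.59 kb. Counted as such groups, dense windows held 8 to 19 units, and 1 of the 22 still held 18 or more, namely 2L from 1100001 with 19. The highest number in any other window was 15.

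**Figure D2:**
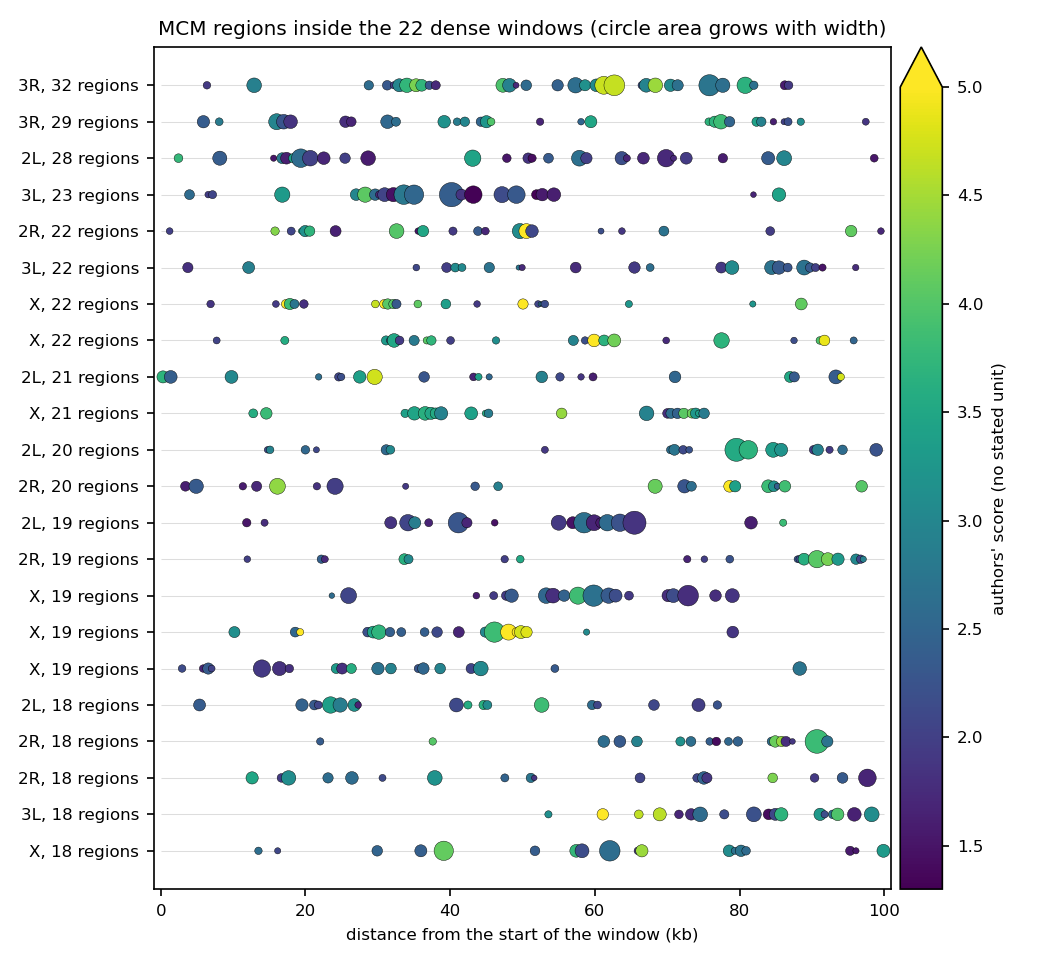
Each row is 1 of the 22 dense windows, named by arm and number of regions, and each circle is a region at its distance in kb from the start of the window. Circle area grows with width and colour gives the authors' score. Close neighbours and single regions occur in the same window. The longest gap between neighbouring regions of a window is 7.26 to 33.5 kb, without the empty ends of the window.

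MCM regions in dense windows were wider than those elsewhere, in all 3 lists. In the whole-series list the median width was 302 bp (quartiles 165 and 490 bp) in dense windows and 205 bp (134 and 320 bp) in the others. Replicate 1 peaks had a median width of 198 bp against 134 bp, and those of replicate 2 had 200 bp against 131 bp. The difference was 66.5 ± 3.54 bp (SD, n = 2), while the medians of the replicates differed by a few bp, at 199 ± 1.41 bp in dense windows and 132 ± 2.12 bp in the others (SD, n = 2). The size of the excess depended on the choice of windows: it was 97 bp in the whole-series list, but 44 bp with 16 or more regions per window and 36 bp when regions within 1 kb were joined before counting. Members were wider on each arm, from 268 bp against 205 bp on 2R to 383 bp against 207 bp on 3L.

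The increase was not an even slope with density. Median widths were 193 bp in windows with 1 to 5 regions, 204 bp with 6 to 11, 218 bp with 12 to 17 and 302 bp with 18 or more. Of the 22 dense windows, 18 (81.8%) had a median above 205 bp, against 61.4% of 127 windows with 12 to 17 regions and 50% of 386 windows with 6 to 11. The medians of the dense windows ran from 153 bp on 2R from 17500001 to 550 bp on 3L from 600001, followed by 535 bp on X from 12500001. The other windows with medians under 205 bp were 2L from 400001 (204 bp), X from 2000001 (175 bp) and X from 19500001 (186 bp).

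Wide regions made up more of the members than of the list as a whole. Regions of 600 bp or more were 16.5% of the members (77 of 467) and 5.27% of the regions in other windows (338 of 6416), where the share over all regions of the arms was 6.03%. In replicate 1 peaks of that width were 9.68% in dense windows and 2.99% in others, and in replicate 2 they were 10.4% and 2.21%. The wide members lay in 21 of the 22 windows, but unevenly, with a median of 3 per window, and the exception was X from 2000001. The most were 9 each on 3L from 600001 and 3R from 12000001. Next came 8 each on 2L from 1100001 and from 19100001, and 7 on X from 12500001. Of the 100 widest regions on the arms, 25 were members, where members were 6.78% of all regions there. Narrow regions under 100 bp were 7.49% of the members and 10.9% of the others.

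Members were wider than other regions at each distance to the nearest neighbour. Members with a neighbour within 1 kb had a median width of 318 bp (272 regions), against 222 bp for such regions in other windows. Members with the nearest neighbour over 1 and up to 5 kb away had 278 bp (149 regions) against 206 bp, and those with none within 5 kb had 262 bp (46 regions) against 183 bp. Regions that took in several peaks of a replicate list were rare in either set. Of the members, 95.5% were made from 1 peak of each replicate, with a median width of 290 bp, and 96.6% of the other regions, with 200 bp. This does not cover joining inside a replicate list. The lowest gap was 200 bp in both replicate lists and 17 bp in the whole-series list. Whether closer signal had been joined within the replicate lists was not tested.

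**Figure D3:**
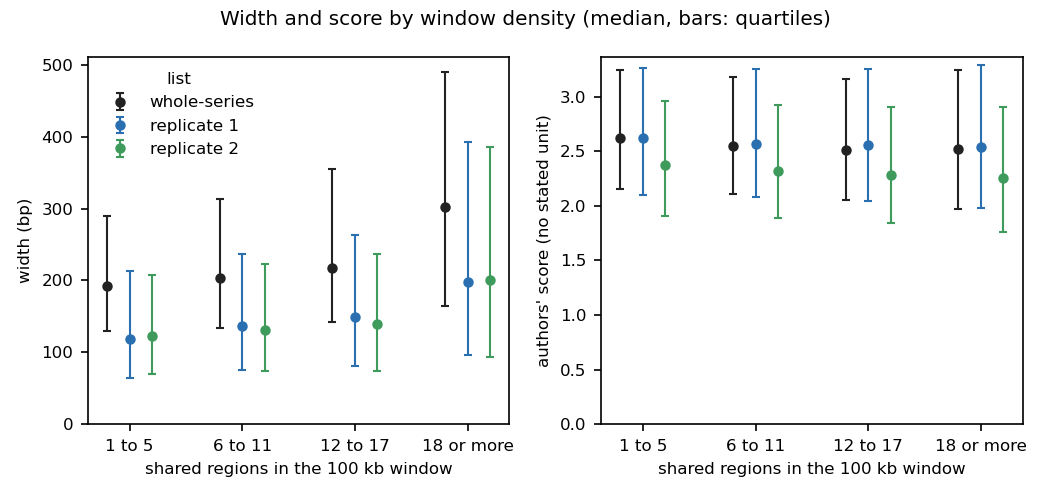
Median width in bp (left) and median authors' score (right) of regions or peaks, with bars from the lower to the upper quartile, by the number of shared regions in the 100 kb window. Black is the whole-series list and blue and green are replicates 1 and 2. Width steps up at 18 or more regions, to 302 bp in the whole-series list, while median scores stay between 2.26 and 2.62.

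The 5 widest members were 1427 to 1855 bp long. The widest was 3L from 639266 to 641120, with 1855 bp, a score of 2.40 and widths of 1855 bp in replicate 1 and 1418 bp in replicate 2. It ranked at 5 by width among the regions of the arms. The region on 2R from 7089819 to 7091586 measured 1768 bp and scored 3.82, and replicate 2 held 2 peaks in it. On 2L, the region from 19164645 to 19166320 measured 1676 bp and scored 1.85, the lowest score of the 5, and the region from 478741 to 480405 measured 1665 bp and scored 3.54. The fifth, X from 12559123 to 12560549, measured 1427 bp and scored 2.68.

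Together the members covered 175 kb, or 9.54% of the length covered by all regions on the arms. In the replicate lists dense windows held 8.90% and 10.1% of the covered length, with 6.03% and 6.55% of the peaks. A dense window had 7.94 kb covered on average (range 4.15 to 15.3 kb), against 1.59 kb in windows with 1 to 17 regions. In replicates 1 and 2 the averages were 7.76 and 6.65 kb against 1.68 and 1.25 kb, a ratio of 4.98 ± 0.499 (SD, n = 2). The ratio of mean counts, which the rule fixed in part, was 3.19 ± 0.187 (SD, n = 2), so the covered length differed more than the counts did.

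Scores in dense windows were close to those of the rest, and slightly lower in both replicates. The deposited score is a value of the authors without a stated unit. Its median was 2.52 (quartiles 1.97 and 3.25) for members and 2.56 (2.10 and 3.19) for regions in other windows. The medians were 2.54 and 2.58 in replicate 1, and 2.26 and 2.32 in replicate 2. The lower score was not particular to dense windows. In the whole-series list the median was 2.62 with 1 to 5 regions per window, 2.55 with 6 to 11 and 2.51 with 12 to 17. Windows with 12 to 17 regions had 2.56 in replicate 1 and 2.29 in replicate 2. The difference between dense and other windows within a replicate was -0.0527 ± 0.0132 (SD, n = 2), negative in both. Its sign in the whole-series list, where it was -0.0403, depended on the choice of windows and turned to 0.0595 with a threshold of 20 regions and to 0.0424 with the grid shifted by 50 kb. The arms also differed in sign, though each held only 2 to 7 dense windows. Members scored lower than other regions on 2L (2.27 against 2.63), 2R (2.46 against 2.63) and 3L (2.27 against 2.53), and higher on 3R (2.65 against 2.45) and X (2.68 against 2.65).

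Among dense windows, by contrast, median scores ranged from 1.85 to 3.40. The lowest was on 2L from 19100001 and the next was on 2L from 1100001, with 1.97. The highest were X from 3600001 with 3.40, X from 2000001 with 3.24, X from 19500001 with 3.20 and X from 12600001 with 3.05. In both replicates 2L from 19100001 was lowest, with 1.88 in replicate 1 and 1.69 in replicate 2. The highest differed: X from 3600001 had 3.55 in replicate 1 and 2.90 in replicate 2, and X from 2000001 had 3.37 and 2.97. The adjoining windows of X differed, with 2.05 from 12500001 and 3.05 from 12600001.

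The 5 highest-scoring members lay on 3L and X. The region on 3L from 8660910 to 8661296 had 8.73, which ranked at 6 among all regions of the arms, with 9.54 in replicate 1 and 7.92 in replicate 2, and is 387 bp wide. It was followed by X from 12649074 to 12649292 with 7.59 (8.33 and 6.84) and X from 2030765 to 2030983 with 6.17 (6.48 and 5.87), each 219 bp wide. The next were X from 19559661 to 19560138 with 5.86 (6.81 and 4.91) and X from 12647684 to 12648469 with 5.67 (6.45 and 4.90). The members ranked at 2 and 5 lay 604 bp apart in the same window. Of the 100 highest scores on the arms, 7 belonged to members, close to their share of 6.78% of the regions there.

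Both replicates had many peaks in each dense window, which follows largely from the rule, since whole-series regions have a peak in both. Replicate 1 had 22 to 39 peaks per window (median 26.5) and replicate 2 had 20 to 35 (median 22), and all 22 windows were among the 50 most crowded of each replicate. On 3R from 12000001 the replicates held 39 and 35 peaks, on 3R from 17400001 they held 38 and 32, and on 2L from 1100001 they held 37 and 34. Replicate 1 had more peaks in 19 windows, as it did on the arms as a whole, and 1 window had equal numbers. Replicate 2 had more on X from 19500001 (28 against 25) and on 2L from 19100001 (27 against 26). The largest imbalance was on 3L from 8600001, where replicate 1 had 34 peaks and replicate 2 had 20, a ratio of 1.70.

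**Figure D4:**
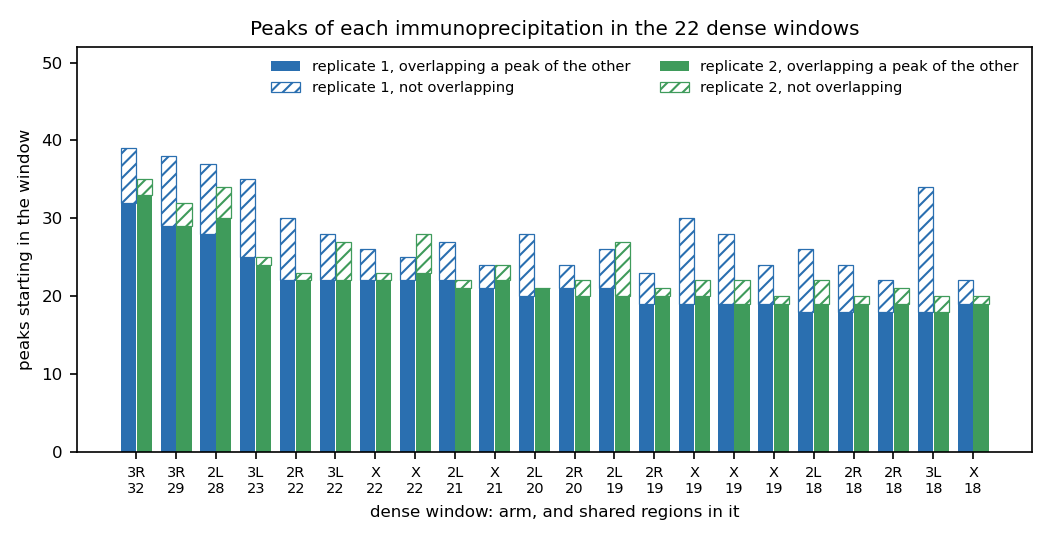
Peaks starting in each of the 22 dense windows (vertical axis) in replicate 1 (blue) and replicate 2 (green). Filled parts share at least 1 bp with a peak of the other list and hatched parts do not. Counts are 22 to 39 in replicate 1 and 20 to 35 in replicate 2, and the largest hatched part is the 16 replicate 1 peaks on 3L from 8600001.

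Windows chosen in 1 replicate were also crowded in the other. The 22 windows with 26 or more peaks in replicate 1 held 17 to 35 peaks in replicate 2, with a median of 22, where the median of all windows was 6. The 25 windows with 21 or more peaks in replicate 2 held 19 to 39 in replicate 1, with a median of 26 against 7. Width behaved alike, since replicate 2 peaks in windows chosen from replicate 1 had a median width of 192 bp against 131 bp outside, and replicate 1 peaks in windows chosen from replicate 2 had 181 bp against 133 bp. Of the 22 dense windows, 14 were among those chosen from replicate 1 and 18 among those chosen from replicate 2.

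A larger part of the peaks was shared in dense windows than elsewhere, mostly in replicate 1. There, 76.5% of 620 peaks overlapped a replicate 2 peak by at least 1 bp (exact binomial 95% interval 72.9% to 79.7%), against 67.6% of 9580 peaks in windows with 1 to 17 regions (66.6% to 68.5%) and 67.6% of all peaks on the arms. In replicate 2, 90.6% of 531 peaks were shared (87.8% to 92.9%), against 87.2% of 7552 (86.4% to 88.0%) and 87.2% on the arms. These intervals cover counting error only, treat peaks as independent and serve as no test of the difference. The rule bears on this share, since it counts shared regions. The excess in replicate 1, 8.88 percentage points here, was 1.31 with windows chosen by the peaks of replicate 1 alone and 8.16 with windows chosen by replicate 2 alone. The excess in replicate 2, 3.38 here, was 0.355 with windows chosen by replicate 2 alone and 1.39 with windows chosen by replicate 1 alone. Choosing by a list's own peaks also counts those seen in that list alone.

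Peaks under 100 bp were shared least in both sets, and by width class the share in dense windows was above that of the others in some classes and below it in others. These shares are given without a test, since the rule bears on them. In replicate 1, peaks of 100 to under 200 bp were shared at 79.6% in dense windows and 81.4% in others, those of 200 to under 400 bp at 93.8% and 93.9%, and those of 400 bp or more at 98.6% and 98.6%. Under 100 bp the shares were 38.2% (65 of 170) and 31.6% (1119 of 3538). In replicate 2 the shares under 100 bp were 70.3% and 68.5%, those of 100 to under 200 bp were 97.5% and 97.4%, and those of 200 to under 400 bp were 97.2% (137 of 141) and 99.5% (1671 of 1680). At 400 bp or more, 125 of 125 peaks in dense windows and 587 of 588 in others were shared.

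**Figure D5:**
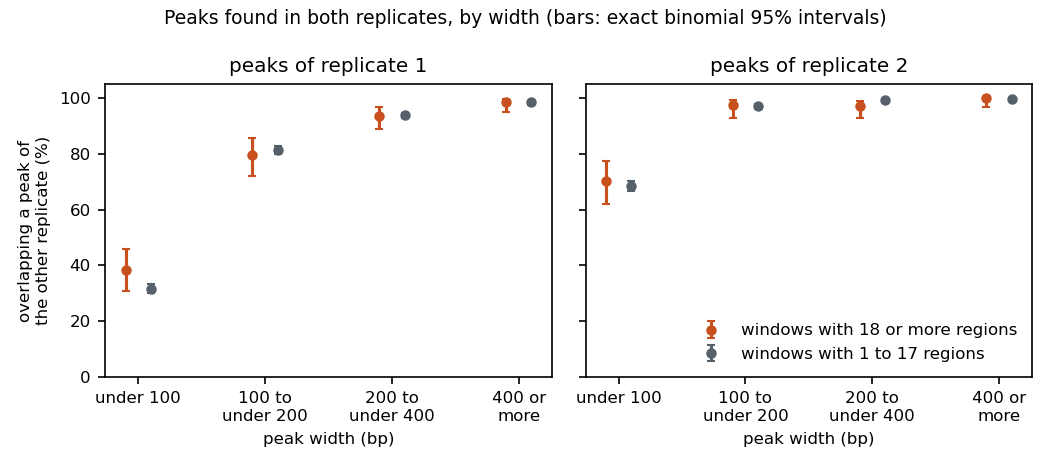
Percentage of peaks that share at least 1 bp with a peak of the other list, by peak width in bp, for replicate 1 (left) and replicate 2 (right). Orange is dense windows and grey is windows with 1 to 17 regions, and bars are exact binomial 95% intervals. In dense windows of replicate 1 the share rises with width, from 38.2% to 98.6%.

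Peaks seen in 1 replicate alone were more numerous per dense window, but were a smaller share of its peaks than elsewhere. Dense windows held a mean of 28.2 and 24.1 peaks in replicates 1 and 2, against 9.21 and 7.26 in other windows. There were 146 such peaks in replicate 1 and 50 in replicate 2, or 6.64 and 2.27 per dense window, against 2.99 and 0.929 per other window. They were narrow, with medians of 65.5 bp and 24.5 bp, against 271 bp and 220 bp for shared peaks of the same windows. In other windows the peaks seen in 1 replicate alone were narrow as well, with medians of 60 bp and 37 bp. Sharing differed between windows. In replicate 1 it was lowest on 3L from 8600001 (52.9%), X from 12500001 (63.3%) and X from 12600001 (67.9%), and highest on X from 19500001 (88.0%). In replicate 2 it ran from 74.1% on 2L from 19100001 to 100% of 21 peaks on 2L from 400001.

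By length, dense windows had the larger common part, mostly for replicate 1. The rule bears on this too, since it counts regions with a peak in both replicates, so the values are a description. Replicates 1 and 2 covered 171 and 146 kb there, and 128 kb was covered by both, which is 75.1% of the length of replicate 1 and 87.7% of that of replicate 2. In the other windows these shares were 64.0% and 86.2%. Overlapping peaks had their midpoints a median of 23.2 bp apart in dense windows and 17.5 bp in the others.

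The scores of overlapping peaks ranked alike in both replicates. Across 488 pairs in dense windows, Spearman's rho was 0.910, and across 6643 pairs in other windows it was 0.864. The pairs come from the same 2 lists, and the values describe these lists only. Within single dense windows rho ran from 0.714 on X from 3600001 to 0.955 on X from 2000001, over 18 to 33 pairs each. Scores were higher in replicate 1 for 439 of the 488 pairs in dense windows and for 86.2% of those in others, with median log2 ratios of 0.25 and 0.22. All 22 windows had a median log2 ratio above 0, from 0.14 on 2R from 2500001 to 0.40 on X from 12600001.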

How the data were processed

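Chromatin immunoprecipitation with an antibody against MCM2-7 and Illumina sequencing were done in Kc167 cells, per the labels' protocols. The deposited files name PeakSeq as the caller, and positions are on FlyBase release 5.1, per the file headers. Aligner, caller version, settings and the role of the input were not given in the sources used here. The deposited score has no stated unit. It served to describe and rank regions inside each list, and to compare ranks of overlapping peaks.

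Windows, widths (end minus start plus 1), gaps, overlaps (at least 1 bp) and covered length after merging were computed with Python 3.11.15, pandas 2.3.3, numpy 2.4.6 and scipy 1.17.1, and were tested on simulated data. Shares have Clopper-Pearson intervals at 95%. The first and last peaks set the ends of each arm. No file gives read counts, so depth is unknown. No genome of release 5.1 was used, so no genes or sequences are given. Named items are the 10 windows with most regions, runs of adjoining windows, and the 5 highest-scoring and 5 widest members. Other windows are named where they hold an extreme, chosen after their values were seen. The members and lists were chosen with earlier results of these data known. Replicates came from the sample titles, and 0 peaks had identical position and score in both. Alternatives were other thresholds, a shifted grid, joined regions, higher scores, stricter overlap and each replicate alone.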

Additional observations from a re-analysis of the deposited data

How the results depend on the processing

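Of 58 recomputed values, 24 stayed within the spread of the main value (for counts, within 1.5 times), 31 moved and 3 turned direction. The cause was not tested. The place of the dense windows depended on the grid: shifted by 50 kb, 22 windows again held 18 or more regions (463), but they overlapped 13 of the 22 original ones.

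Thresholds of 16 and 20 gave 897 and 282 regions, with 10 and 0 adjoining windows, and 2 windows adjoined with the shifted grid, with regions within 1 kb joined, or with scores at or above the median only, which left 198 regions. The excess in median width, 97 bp in the main setting, was positive in all settings, with 44 bp at 16, 83.5 bp at 20, 68 bp with the shifted grid, 36 bp with joined regions (26 windows of 13 or more groups) and 37.5 bp with higher scores (15 windows). The difference in median score, -0.0403 in the main setting, was -0.0704 at 16, 0.0595 at 20, 0.0424 with the shifted grid, -0.0812 with joined regions and 0.0703 with higher scores. Dense windows held 5.47% of the covered length at 20, 8.38% with joined regions and 6.52% with higher scores. The median gap was 2603 bp with joined regions and 3104 bp with higher scores. Joining served only to choose windows, and the values with joined regions are those of the original regions. With higher scores, the gap and covered share are those of the regions kept. Spearman's rho was 0.880 with the shifted grid and 0.887 with joined regions. An overlap of at least 50% of the shorter peak left the shared excess at 8.89 and 3.22 percentage points.

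With windows chosen on 1 replicate alone, the list held 599 to 648 peaks in dense windows, of which 5 to 7 windows adjoined. The width excess was 48 to 51 bp, the score difference -0.188 to -0.0971, the covered share 9.07% to 10.6% and the median gap 1006 to 1479 bp. The shared excess was 1.31 to 8.16 points in replicate 1 and 0.355 to 1.39 in replicate 2, and rho was 0.902 to 0.903. No paired analysis was possible because the labels give 1 group of immunoprecipitations and its lists are compared with no other group. The lists hold no read counts, so what depth limits was not measured.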

Other observations

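Across the 22 dense windows, Spearman's rho between the median width and the median score of the regions was -0.34, and across 127 windows with 12 to 17 regions it was 0.10. Windows share their lists and depth, so these values are descriptions. Among single regions, rho between width and score was 0.285 for members and 0.343 for the regions in other windows.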
